A study of Mus musculus with 14 samples.

Results

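Simple epithelial keratins and the surface proteins *Epcam* and *Prom1* were followed through every condition of a mouse liver organoid study. The 8 genes are *Krt7*, *Krt8*, *Krt18*, *Krt19*, *Krt20*, *Krt23*, *Epcam* and *Prom1*, taken by name from a table of 28022 genes, and all 8 had a row. RNA-seq read counts were available for 14 libraries, 2 for each of 7 conditions, all labelled C57BL/6J. Fib are embryonic fibroblasts from mid-gestation embryos. 2D-iHepSC (2D-iHs) are a monolayer of iHepSCs, hepatic stem-like cells made from such fibroblasts with lentiviral *Oct4* and *Hnf4α*. 2D-iHepSCiEC (2D-iHEs) are a monolayer of the same cells with iECs, endothelial-like cells made from the human fibroblast line HF1 with lentiviral *ETV2*. 3D-iHA (iHLOs) are spheroids of iHepSCs alone in a hydrogel of Matrigel and type I collagen, and 3D-iHEA (iHEAs) add iECs to that hydrogel. According to the methods, the 4 cultures shared a medium, an equal mix of hepatic and endothelial media with oncostatin M, but the spheroids of both 3D conditions were first formed in hepatic medium in low-attachment wells and then shaken in the hydrogel, so medium history and 3D cannot be told apart. Adult-Liver and Fetal-Liver are bulk tissue, from 6-week-old mice and from mid-gestation fetuses according to the methods of the study. The reads were aligned to the mouse genome, so RNA of the human iECs was counted only where it aligned to mouse genes, and how much of it did was not tested.

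Keratins build the intermediate filaments of epithelial cells as pairs of a type I and a type II chain. *Krt8* (type II) with *Krt18* (type I) is the pair of hepatocytes and of all simple epithelia, whereas *Krt7* (type II) and *Krt19* (type I) are added in bile duct cells, the cholangiocytes, and in hepatic progenitor cells. *Krt20* is a type I keratin of intestinal and gastric lining cells and of the urothelium, and *Krt23* is a type I keratin of several simple epithelia. *Epcam* encodes a cell adhesion molecule of epithelial surfaces that marks cholangiocytes and progenitors and is absent from mature hepatocytes. *Prom1* encodes CD133, a membrane protein of apical protrusions that is widely used to select progenitor cells. The study stained the protein of *Krt19* with albumin as a hepatic lineage marker, and with that of *Krt7* as a cholangiocyte marker. It read cells with albumin and the *Krt19* protein as undifferentiated iHepSCs, and reported cells with both keratins only in cultures with iECs. The question addressed here is how the messages of the genes named above differed between the conditions.

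In GRCm38 (GENCODE M21), the genes lie at 4 places. The type II cluster holds *Krt7* at chr15:101411043-101430313 and *Krt8* at chr15:101996698-102004482. *Krt18*, the only type I keratin gene of that cluster, is the next coding gene after *Krt8* and lies 23697 bases away at chr15:102028180-102032027, transcribed in the other direction. The type I cluster holds *Krt20* at chr11:99428403-99438150, *Krt23* as its next coding gene at chr11:99477974-99493137, 39823 bases further on, and *Krt19* at chr11:100140810-100148665. *Epcam* is at chr17:87635979-87651129 and *Prom1* at chr5:43993620-44102032. Annotated genes without a row in the count table overlap *Krt7* (*Gm671*), *Krt8* (*Gm36026*) and *Prom1* (*Gm42716* and *Gm16401*), and since the strand setting of the counting is not given in the sources used here, reads of such partners cannot be told apart from those of the member. *Krt8-ps*, a pseudogene of *Krt8*, had at most 132 counts in a library, and reads shared between the copies could fall to either.

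Promoters of 7 of the 8 genes were found in the RefSeq table of GRCm38.p6 (250 bases before to 50 bases after the start), and *Krt19* had no entry. The 4 below are shown because *Krt8* and *Krt18* had the most alike levels of all member pairs and *Krt23* and *Epcam* the most opposite ones in culture. They are written 5′ to 3′ along the gene's strand, and capitals mark matches of a searched motif on either strand.
Krt8, chr15:102004293-102004592, - strand: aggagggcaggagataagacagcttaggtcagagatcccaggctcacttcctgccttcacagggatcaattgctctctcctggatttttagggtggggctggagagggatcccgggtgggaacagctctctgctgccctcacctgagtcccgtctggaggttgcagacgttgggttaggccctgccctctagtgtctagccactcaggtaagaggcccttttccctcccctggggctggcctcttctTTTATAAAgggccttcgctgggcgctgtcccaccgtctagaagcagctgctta
Krt18, chr15:102027966-102028265, + strand: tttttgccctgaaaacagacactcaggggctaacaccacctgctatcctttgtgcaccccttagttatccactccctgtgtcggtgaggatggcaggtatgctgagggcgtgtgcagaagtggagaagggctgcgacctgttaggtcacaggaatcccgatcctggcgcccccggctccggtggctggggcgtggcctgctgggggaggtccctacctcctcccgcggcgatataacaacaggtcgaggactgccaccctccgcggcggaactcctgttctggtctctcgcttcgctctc
Krt23, chr11:99493071-99493370, - strand: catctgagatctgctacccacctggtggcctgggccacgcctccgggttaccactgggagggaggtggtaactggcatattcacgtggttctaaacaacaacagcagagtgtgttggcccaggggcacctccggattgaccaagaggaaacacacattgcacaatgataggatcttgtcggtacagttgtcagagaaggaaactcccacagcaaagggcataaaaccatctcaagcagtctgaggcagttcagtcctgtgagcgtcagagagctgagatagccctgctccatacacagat
Epcam, chr17:87635729-87636028, + strand: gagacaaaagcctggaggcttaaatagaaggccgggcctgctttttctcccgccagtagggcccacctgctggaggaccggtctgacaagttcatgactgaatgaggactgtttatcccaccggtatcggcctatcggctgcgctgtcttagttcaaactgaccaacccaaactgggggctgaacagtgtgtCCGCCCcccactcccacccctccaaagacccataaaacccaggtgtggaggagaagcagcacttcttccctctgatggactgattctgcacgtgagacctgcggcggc
The letters searched on both strands were TGANTCA (AP-1), GGAATG (TEAD), GGGCGG (the GC box of Sp and KLF factors), AACNNGTT (GRHL), GTTAAT (one arm of the HNF1 motif) and TATAAA (a core promoter element). They occur in 7.81%, 14.7%, 35.7%, 4.2%, 7.1% and 13.6% of all 32851 windows of that length. The *Krt8* window held 2 overlapping matches of TATAAA, from bases 248 and 250. *Epcam* had 1 GC box at base 193, and no searched letters occurred in the windows of *Krt18* and *Krt23*. Of the windows not printed, *Krt7* held 4 GC boxes, *Krt20* held 3 TEAD matches of which 2 share a base, and TATAAA from base 222. Both *Prom1* windows held 1 AP-1 and 1 GRHL match each, and the first of them, at chr5:44101687-44101986, also a GC box. A match describes letters in a window and not a bound site. The neighbours *Krt8* and *Krt18* thus shared no searched motif, and neither did *Krt20* and *Krt23*.

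The total count per library ranged from 20851489 to 35143325, with 16731 to 18948 genes having at least 1 count. Levels are given as CPM, counts scaled to a common library size after TMM, a correction for composition. In adult liver the TMM factor was 0.445 to 0.451 and elsewhere 1.09 to 1.22, so that TMM raised adult liver levels by 2.23 times over plain CPM and lowered the others. The chi-square statistic per gene between the 2 libraries of a condition was 2.93 to 3.49 in 5 conditions, 10.9 in 3D-iHEA and 12.7 in fetal liver, where sampling noise alone gives about 1. Nothing states that the 2 libraries came from separate cultures or animals, so p-values measure the spread between these libraries, which may be technical. In 3D against 2D, fitted as 4 against 4 libraries, that spread also holds the difference between cultures with and without iECs. As a check of the labels, the summed level of 10 hepatocyte genes was 553000 to 585000 CPM in adult liver, 11000 to 13800 in fetal liver and 322 to 443 in the cultures, where the defining *Cyp2e1* had 0 counts in 3 of the 4 culture conditions. The cultures labelled hepatic thus lay far below liver tissue in hepatocyte messages. The 8 fibroblast genes summed to 26200 to 27500 CPM in Fib and to 3.85 to 12.6 in the cultures.

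The 8 genes together held 0.272% to 0.394% of all counts in the cultures, 0.0456% to 0.0458% in adult liver, 0.0303% to 0.0315% in fetal liver and 0.000805% to 0.000836% in fibroblasts. Of the 54 keratin genes with a row, the 6 keratins held 87.2% to 91.1% of keratin counts in the cultures and 99.5% to 99.7% in adult liver. In fetal liver the share was 94.2% to 94.8%. In fibroblasts it was 43.9% to 45.7%, of only 492 to 601 keratin counts in all. The level of each gene in each library is plotted by condition.

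**Figure D1:**
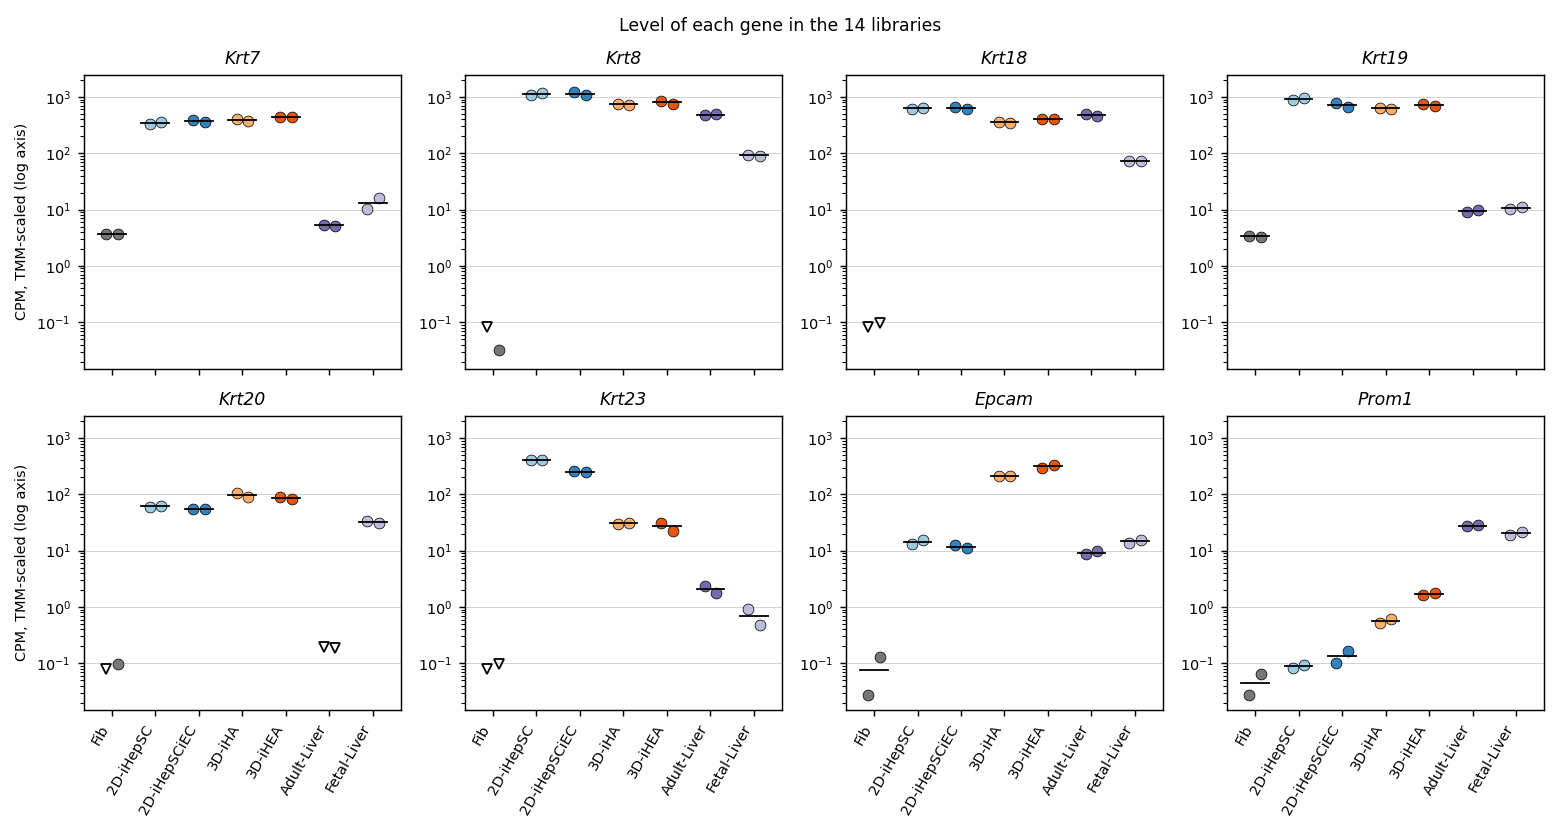
Level of each gene in CPM after TMM scaling (log axis) in the 14 libraries by condition; circles are libraries, bars the mean of the 2 libraries, and open triangles stand at the level of 3 counts for libraries with 0 counts. *Krt23* falls from about 412 CPM in 2D-iHepSC to 30.4 in 3D-iHA while *Epcam* climbs from 14.3 to 213, and *Krt20* has triangles in adult liver.

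The hepatocyte pair *Krt8* and *Krt18* was the most abundant in liver tissue and near absent from fibroblasts. *Krt8* had 0 and 1 counts in Fib, 39452 and 37176 in 2D-iHepSC, 46869 and 25668 in 2D-iHepSCiEC, 24939 and 22902 in 3D-iHA, 27813 and 21517 in 3D-iHEA, 7338 and 7731 in adult liver, and 3225 and 2795 in fetal liver. *Krt18* had no count in either Fib library, which allows up to 0.0806 and 0.0958 CPM, and 21873 and 20442 in 2D-iHepSC, 26261 and 15022 in 2D-iHepSCiEC, 11955 and 11167 in 3D-iHA, 13612 and 11529 in 3D-iHEA, 7571 and 7376 in adult liver, and 2479 and 2244 in fetal liver. In CPM, the 2D conditions stood highest for both genes and their ranges overlapped. Next came 3D-iHEA and 3D-iHA for *Krt8*, also overlapping, at 802 ± 56.1 and 738 ± 34.5 (SD, n = 2), then adult liver at 485 ± 6.86 and fetal liver at 92.7 ± 3.11. For *Krt18*, adult liver at 481 ± 19.8 (SD, n = 2) stood above 3D-iHEA at 410 ± 2.46 and 3D-iHA at 357 ± 12.4. That place depends on the scaling, since plain CPM gave 216 in adult liver against 480 in 3D-iHEA and 407 in 3D-iHA.

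The ductal keratins *Krt7* and *Krt19* were high in every culture library and low in both liver tissues. *Krt7* had 138 and 117 counts in Fib, 11888 and 11539 in 2D-iHepSC, 15114 and 8732 in 2D-iHepSCiEC, 13077 and 11788 in 3D-iHA, 14388 and 12564 in 3D-iHEA, 81 in each adult liver library, and 350 and 487 in fetal liver. *Krt19* had 126 and 104 counts in Fib, 31981 and 30227 in 2D-iHepSC, 30544 and 16159 in 2D-iHepSCiEC, 21144 and 19412 in 3D-iHA, 24570 and 19600 in 3D-iHEA, 138 and 154 in adult liver, and 354 and 346 in fetal liver. In CPM, *Krt7* was highest in 3D-iHEA at 440 ± 6.86 (SD, n = 2), with 3D-iHA, 2D-iHepSCiEC and 2D-iHepSC following in ranges that overlapped each neighbour, from 384 to 347. *Krt19* was highest in 2D-iHepSC at 921 ± 41.4 (SD, n = 2), overlapped between 2D-iHepSCiEC and 3D-iHEA (728 ± 80.9 and 719 ± 34.8), and was lowest of the cultures in 3D-iHA at 626 ± 29.3. In liver both genes stood at 5.22 to 13 CPM. In bulk tissue, fewer cells of a type and less RNA of a gene per cell cannot be told apart, and this holds for each tissue value here.

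*Krt20* and *Krt23* are neighbouring genes on chromosome 11 that took different courses. *Krt20* had 0 and 3 counts in Fib, 2164 and 1996 in 2D-iHepSC, 2129 and 1323 in 2D-iHepSCiEC, 3423 and 2900 in 3D-iHA, 2981 and 2378 in 3D-iHEA, and 1136 and 957 in fetal liver. It had no count in either adult liver library, which allows up to 0.196 and 0.19 CPM, and the fetal level was 32.2 ± 1.73 CPM (SD, n = 2). The 5 conditions above the floor stood in ranges of their own, in the order 3D-iHA (97.5 ± 10.1), 3D-iHEA (87.2 ± 4.22), 2D-iHepSC (61.5 ± 1.71), 2D-iHepSCiEC (54.8 ± 0.129) and fetal liver. The nearest libraries of 3D-iHA and 3D-iHEA stood at 90.39 and 90.19 CPM, and in plain CPM these conditions overlapped (103.6 to 118.7 and 100.1 to 104.1). Neither the step between the 3D conditions nor that between the 2D conditions was called (edgeR adjusted p = 0.391 and 0.259). *Krt23* had no count in Fib, 14850 and 13058 in 2D-iHepSC, 10069 and 5934 in 2D-iHepSCiEC, 966 and 1004 in 3D-iHA, 1046 and 643 in 3D-iHEA, 36 and 28 in adult liver, and 31 and 15 in fetal liver. Both 2D conditions lay far above both 3D conditions, and the ranges of 3D-iHA (30.4 ± 1.24 CPM) and 3D-iHEA (27.2 ± 6.27, n = 2) overlapped.

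*Epcam* and *Prom1* were low in 2D and higher in each 3D condition, with *Prom1* at 3 to 55 counts a library in the cultures. *Epcam* had 1 and 4 counts in Fib, 475 and 491 in 2D-iHepSC, 485 and 271 in 2D-iHepSCiEC, 6905 and 6900 in 3D-iHA, 9732 and 9469 in 3D-iHEA, 134 and 153 in adult liver, and 459 and 483 in fetal liver. Its order in CPM was 3D-iHEA (315 ± 29), 3D-iHA (213 ± 2.77), fetal liver and 2D-iHepSC (14.6 ± 1.51 and 14.3 ± 1.55, overlapping), 2D-iHepSCiEC (11.9 ± 0.862), adult liver (9.23 ± 0.655) and Fib (0.0773 ± 0.0713), each SD with n = 2. *Prom1* had 1 and 2 counts in Fib, 3 in each 2D-iHepSC library, 4 in each 2D-iHepSCiEC library, 17 and 20 in 3D-iHA, 55 and 50 in 3D-iHEA, 423 and 444 in adult liver, and 642 and 672 in fetal liver. Its level was 27.9 ± 0.321 CPM in adult liver, 20.3 ± 2.03 in fetal liver and at most 1.72 ± 0.0756 in a culture condition (SD, n = 2). *Prom1* was thus the only member with both tissues above every culture, and no neighbours in its order overlapped, although the levels in Fib and 2D rest on 1 to 4 counts a library and cannot be told apart at this depth.

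Compared per kb of annotated exons, the same 3 keratins led in all 4 cultures and the tissues had another order. In 2D-iHepSC, *Krt8* stood at 579 ± 24.5 CPM per kb, *Krt19* at 496 ± 22.3, *Krt18* at 436 ± 16.1 and *Krt23* at 263 ± 1.63 (SD, n = 2). In 3D-iHA, *Krt8* (377 ± 17.6), *Krt19* (337 ± 15.8) and *Krt18* (248 ± 8.63) were followed by *Epcam* at 97.1 ± 1.29, which had stood seventh in 2D-iHepSC at 6.53 ± 0.706, and *Krt23* came seventh at 19.4 ± 0.785. In adult liver *Krt18* (335 ± 13.8) stood above *Krt8* (248 ± 3.54), and each of the other 6 genes was at or below 5.06. In fetal liver *Krt18* (50.7 ± 0.148) and *Krt8* (47.3 ± 1.58) were followed by *Krt20* at 16.7 ± 0.898 CPM per kb. With the longest annotated transcript in place of all exons, *Krt19* stood above *Krt8* in 2D-iHepSC, 3D-iHA and 3D-iHEA and above *Krt18* in 2D-iHepSCiEC, so these orders rest on the length used.

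The keratin composition of a cell type was read from shares of the summed CPM per kb of the 6 keratins. *Krt23* made up 14.6% and 13.8% of them in 2D-iHepSC, 9.41% and 9.98% in 2D-iHepSCiEC, 1.68% and 1.9% in 3D-iHA, and 1.62% and 1.25% in 3D-iHEA. *Krt20* made up 1.62% to 1.81% in 2D, 3.74% to 4.84% in 3D and 13.2% to 14% in fetal liver. Type I chains exceeded type II chains in every library. The ratio of type I to type II per kb was 1.94 to 1.97 in 2D-iHepSC, 1.62 to 1.65 in 2D-iHepSCiEC, and 1.52 to 1.58 over all of 3D. The 2D conditions thus differed from each other by more than 2D-iHepSCiEC did from 3D, and the ratio was not tested.

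Within the hepatocyte pair, the ratio of *Krt18* to *Krt8* per kb separated the tissues from the cultures. It was 1.41 and 1.3 in adult liver, 1.05 and 1.09 in fetal liver, 0.749 to 0.798 in 2D and 0.653 to 0.73 in 3D, 4 libraries each. All 8 culture libraries were thus below 1 and all 4 liver libraries above 1, a split that does not depend on the scaling of libraries but does on the length correction. As a ratio of counts it was 1.03 and 0.954 in adult liver, 0.769 and 0.803 in fetal liver and 0.479 to 0.585 in the cultures, so that the tissues stayed above the cultures but 3 of the 4 tissue libraries fell below 1. The ranges of 2D and 3D did not overlap either, and the difference was not tested.

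**Figure D2:**
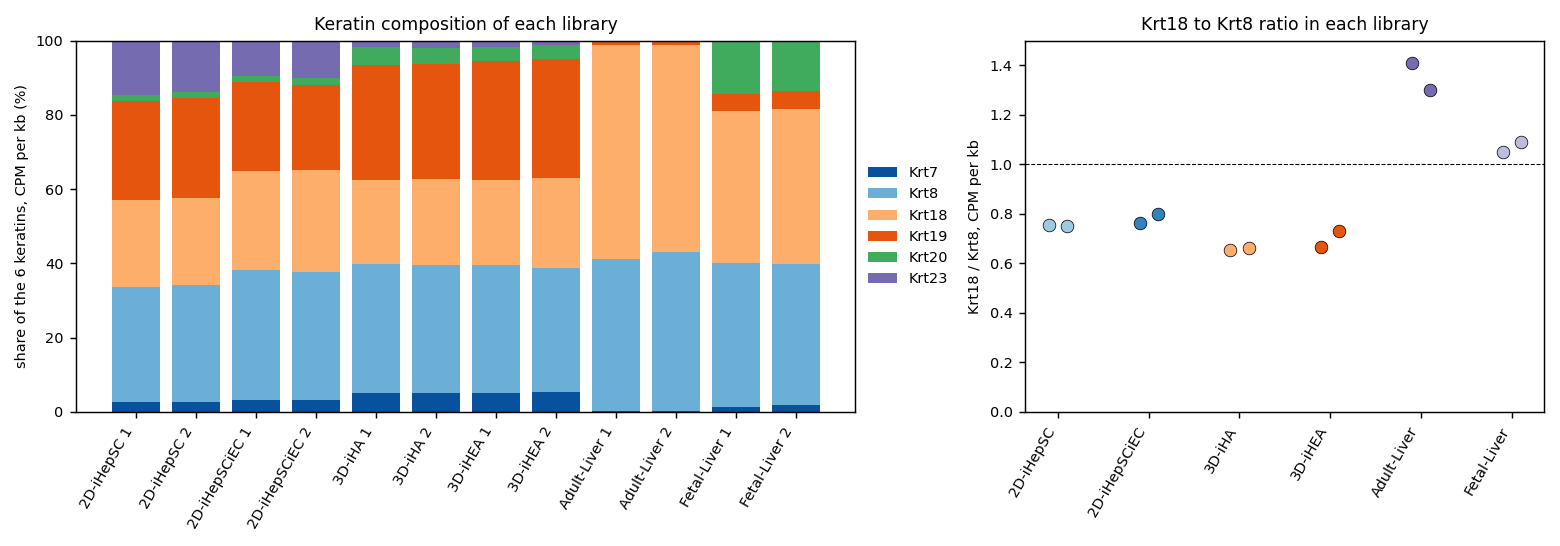
Left, share of each of the 6 keratins in their summed CPM per kb of exons (%), 1 bar for each library of cultures and liver; right, ratio of *Krt18* to *Krt8* per kb, 1 point for each library, with a dashed line at 1. *Krt23* shrinks from 13.8% to 14.6% in 2D-iHepSC to under 2% in 3D, and only liver libraries lie above a ratio of 1 per kb.

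Grouping the cultures by 3D (3D-iHA and 3D-iHEA) and 2D, *Epcam*, *Krt20* and *Krt7* were called higher in 3D and *Krt23*, *Krt18*, *Krt8* and *Krt19* lower. *Prom1* passed the filter on low counts (a mean log2(count + 1) of 3) only through its 3D libraries, with a mean of 2.16 in 2D and 5.01 in 3D, so that it had to differ between them. Its call in the comparisons of 3D with 2D is a description, and the counts of members called are given without it. Of all 13409 genes tested, 38.7% were called higher and 37.2% lower (adjusted p under 0.05, edgeR's quasi-likelihood test with Benjamini-Hochberg adjustment), so that being called was common, and the median log2 fold change of the 8 members was -0.01 against 0.01 for all genes. That median includes *Prom1*, and without it the middle member was *Krt19*, at -0.25. *Epcam* rose by a log2 fold change of 4.37 ± 0.173 (SE; edgeR adjusted p = 1.1e-09), and *Prom1* had 142 counts in 3D and 14 in 2D, a ratio of 10.5 with a 95% counting interval from 6.07 to 19.7. *Krt23* was 11.2-fold lower (log2 -3.49 ± 0.184, edgeR adjusted p = 1.19e-08). *Krt20* was 1.63-fold higher and *Krt18* 1.62-fold lower, with log2 fold changes of 0.70 ± 0.064 and -0.70 ± 0.0629. *Krt8* was 1.43-fold lower (log2 -0.52 ± 0.0551). The ductal pair moved least and in opposite directions: *Krt7* by 0.23 ± 0.071 (edgeR adjusted p = 0.0124) and *Krt19* by -0.25 ± 0.0948 (edgeR adjusted p = 0.0296). For *Krt7* and *Krt19* the 2D and 3D libraries overlapped, whereas for 5 others besides *Prom1* they did not, which held for 70.4% of all genes. The *Krt19* call was lost when any single library of 2D-iHepSC or 3D-iHA was left out, with adjusted p from 0.0708 to 0.0943, and the *Krt7* call in the fit of 14 libraries (log2 0.19, adjusted p = 0.0675) and without the 3D-iHEA libraries (0.13, adjusted p = 0.123).

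Hepatic cells alone, 3D-iHA against 2D-iHepSC, gave the same directions, with 3 members called higher and 4 lower, where 36.9% of all genes were called higher and 35.3% lower (median log2 fold change of members with *Prom1* -0.16, of all genes 0.01). Without *Prom1* the middle member was *Krt19*, at -0.51. *Krt23* was 13.2-fold lower (log2 -3.72 ± 0.0966, edgeR adjusted p = 2.81e-12) and *Epcam* 15.3-fold higher (3.94 ± 0.0885, edgeR adjusted p = 9.52e-13). For *Prom1* the ratio of counts was 6.44 with a 95% counting interval from 2.7 to 18.7, since its 2D libraries had 3 counts each. *Krt19* was 1.43-fold lower (log2 -0.51 ± 0.0636), and *Krt18*, *Krt8*, *Krt20* and *Krt7* had log2 fold changes of -0.77, -0.58, 0.71 and 0.19. *Prom1* aside, no member's libraries overlapped between the groups, as for 86.9% of all genes at 2 against 2 libraries. The *Krt7* call was lost without the first 2D-iHepSC library (edgeR adjusted p = 0.195), without the first 3D-iHA library (0.136) and with all 14 libraries in the fit (0.212).

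With iECs, 3D-iHEA against 2D-iHepSCiEC, 3 genes were higher and 3 lower, where 36% of all genes were called higher and 34.9% lower (median of members with *Prom1* 0.14, of all genes 0.01). Without *Prom1* the middle member was *Krt19*, at 0.02. *Epcam* was 27.1-fold higher (4.76 ± 0.0923, edgeR adjusted p = 3.28e-13) and *Krt20* 1.63-fold higher (0.70 ± 0.0677). For *Prom1*, 105 counts against 8 gave a ratio of 13.5 with a counting interval from 6.6 to 32.1. *Krt23* was 9.04-fold lower (-3.18 ± 0.0968), and *Krt18* and *Krt8* were lower by log2 fold changes of -0.63 and -0.47. *Krt7* was higher by 0.26 ± 0.0595, a call lost with 14 libraries in the fit (edgeR adjusted p = 0.053). *Krt19* was not called: its log2 fold change was 0.02 with a 95% interval from -0.12 to 0.15 (edgeR adjusted p = 0.837), and its libraries overlapped.

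**Figure D3:**
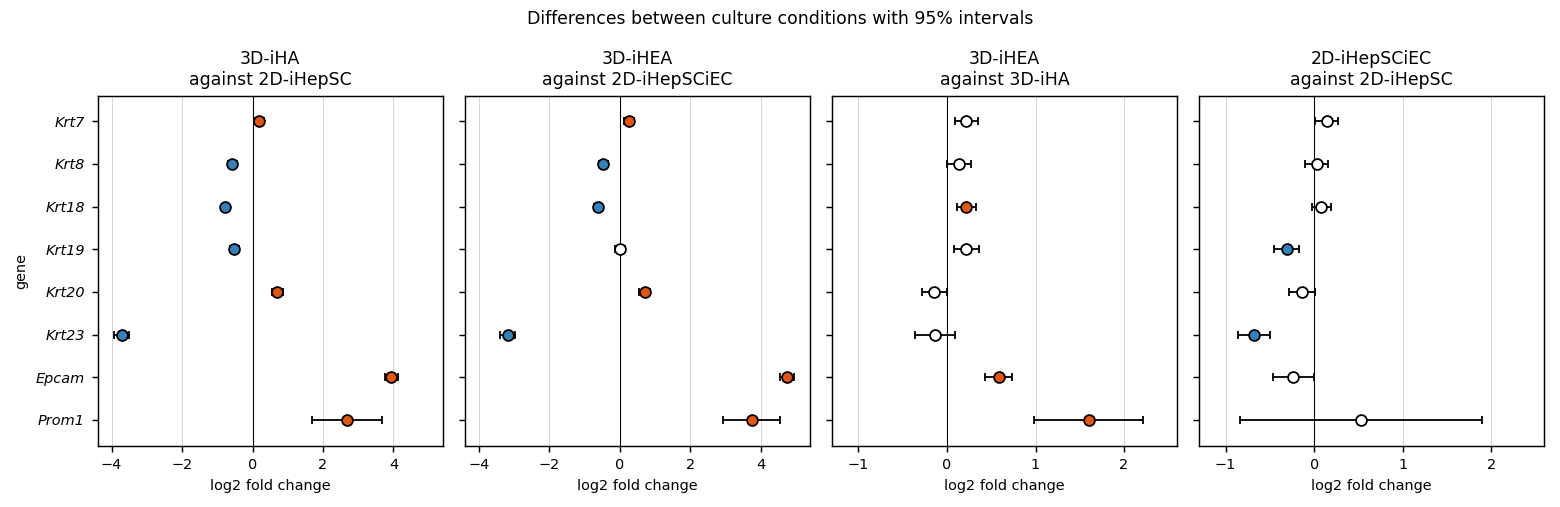
Log2 fold change of each gene (x axis) in 4 culture comparisons with the 95% interval from edgeR; orange points were called higher, blue points lower, and white points not called. The 2 panels on the left, 3D against 2D, span -3.72 to 4.76, and the 2 on the right, with against without iECs, have a narrower axis and span -0.68 to 1.60.

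Between the 3D conditions, 3D-iHEA against 3D-iHA, 2 members besides *Prom1* were higher and none lower, where 1.19% of all genes were called higher and 1.07% lower (median of members with *Prom1* 0.22, of all genes -0.01). *Epcam* was 1.5-fold higher with iECs (log2 0.58 ± 0.0712, edgeR adjusted p = 0.00106), with 9732 and 9469 counts against 6905 and 6900, and it was called in every alternative run. *Krt18* was 1.16-fold higher (0.22 ± 0.0509, edgeR adjusted p = 0.0451). For *Prom1*, 105 counts against 37 gave a log2 fold change of 1.60 ± 0.283 (edgeR adjusted p = 0.0116), which is a description too. *Prom1* was above the filter in both of these conditions, with means of 5.74 and 4.28, but in the fit of 8 libraries it passed only with 3D-iHEA included. The calls of *Prom1* and *Krt18* were lost without either 3D-iHA library, with adjusted p from 0.0673 to 0.124 for *Prom1* and from 0.181 to 0.366 for *Krt18*, and with only the libraries of the comparison (edgeR adjusted p = 0.0657 and 0.128). DESeq2 did not call *Prom1* (adjusted p = 0.128), and the fit of 14 libraries did not call *Krt18* (edgeR adjusted p = 0.0975). *Krt7* and *Krt19*, the keratins the study stained, had log2 fold changes of 0.22 and 0.22, with 95% intervals from 0.09 to 0.35 and from 0.08 to 0.36, and did not pass the adjusted threshold (edgeR adjusted p = 0.0911 and 0.115). DESeq2 called both (adjusted p = 0.0131 and 0.0171). *Prom1* aside, the libraries of 5 members did not overlap between the conditions, beside 39.9% of all genes. *Krt23* had a log2 fold change of -0.14 (interval -0.36 to 0.09), which became -0.38 and called without the first 3D-iHEA library (edgeR adjusted p = 0.00322) and 0.06 without the second. *Krt8* (0.14) and *Krt20* (-0.14) were not called.

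Between the monolayers, 2D-iHepSCiEC against 2D-iHepSC, 2 of the 8 genes were lower and none higher, where 4.26% of all genes were called higher and 3.92% lower (medians -0.06 and 0.0019). *Krt23* was 1.6-fold lower with iECs (log2 -0.68 ± 0.083, edgeR adjusted p = 0.000402) and *Krt19* 1.24-fold lower (-0.31 ± 0.0635, edgeR adjusted p = 0.0103). The *Krt19* call was lost without the second library of either condition (edgeR adjusted p = 0.111 and 0.121). *Krt7* differed by 0.14 with an interval from 0.01 to 0.27 (edgeR adjusted p = 0.183), *Epcam* by -0.24 (interval -0.47 to -0.00, edgeR adjusted p = 0.22) and *Krt8* by 0.03 (interval -0.10 to 0.16). For *Prom1*, 8 against 6 counts in all gave a ratio of 1.43 with a counting interval from 0.436 to 5.01.

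Whether iECs went with a different change in 3D than in 2D was tested as an interaction. It was called for 3 genes, all with a more positive difference in 3D, where 1.52% of all genes were called in that direction and 1.62% in the other (medians 0.33 and -0.0047). The interaction was 0.82 ± 0.128 for *Epcam* (edgeR adjusted p = 0.0047), 0.53 ± 0.0899 for *Krt19* (0.0071) and 0.54 ± 0.132 for *Krt23* (0.0469) on the log2 scale. The estimates had opposite signs for *Epcam* and *Krt19*, at -0.24 and -0.31 with iECs in 2D and 0.58 and 0.22 in 3D, of which *Krt19* in 2D and *Epcam* in 3D were called. The interaction shares its libraries with the 4 comparisons above and is not independent of them. *Krt23* lost this call in the DESeq2 Wald test (adjusted p = 0.187), with 14 libraries (0.0818) and without any single library of 2D-iHepSC, 2D-iHepSCiEC or 3D-iHA (0.127 to 0.226). *Krt19* lost it without the second 3D-iHA library (0.0559). The 4 other keratins had interactions from -0.00 to 0.14, and that of *Prom1* was 1.07 with an interval from -0.53 to 2.67.

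The keratins and *Epcam* were higher in the converted cells than in fibroblasts, which already had *Krt7* and *Krt19* at low counts. In 2D-iHepSC against Fib, 7 of the 8 genes were higher and none lower, where 45.7% of all genes were called higher and 38.2% lower (14121 genes in the fit of 14 libraries, median 0.11). Members at or near 0 counts in Fib passed the filter through the other conditions, so that their count is a description. *Krt18* was at least 6530-fold and *Krt23* at least 4300-fold higher, against a floor of 3 counts in each Fib library. *Krt8* had a count ratio of 77600 with a counting interval from 13900 to 3060000, *Krt20* of 1400 (480 to 6810) and *Epcam*, with 5 counts in Fib and 966 in 2D-iHepSC, of 196 (83.5 to 604). *Krt19* and *Krt7*, with over 100 counts in each Fib library, rose by log2 fold changes of 8.03 ± 0.104 and 6.47 ± 0.145. *Prom1* was at the floor in both conditions and gets no fold.

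Between the tissues, adult against fetal liver, 4 genes were higher in adult liver and 3 lower, where 40% of all genes were called higher and 43.8% lower (medians 0.16 and -0.10). *Krt18* was 6.75-fold (log2 2.75 ± 0.0636, edgeR adjusted p = 8e-15) and *Krt8* 5.34-fold higher in adult liver (2.42 ± 0.078, edgeR adjusted p = 9.05e-14), and on library totals without TMM the log2 fold changes were 1.33 and 0.99, still called. *Krt20* was at least 164-fold lower in adult liver, where it had no count. It passed the filter through other conditions, so that its call, counted among those lower, is a description. *Krt7* was 2.44-fold lower (-1.28 ± 0.189) and *Epcam* 1.54-fold lower (-0.63 ± 0.133). *Krt19* was not called (-0.17, interval -0.42 to 0.07, edgeR adjusted p = 0.174). *Krt23* (1.56 ± 0.4) and *Prom1* (0.49 ± 0.109) were called higher, but the direction of *Prom1* and the call of *Krt23* depend on the scaling, and *Krt23*, with 15 to 36 counts a library, was at 2.16 without the first fetal liver library and 1.20 without the second. On library totals, the median of all genes shifted to -1.52, *Krt7* stood at -2.71 and *Epcam* at -2.05, *Prom1* turned to -0.94, *Krt23* to 0.15 without a call, and *Krt19* was called lower at -1.59, leaving 2 members higher and 5 lower. All genes were then split into 2282 higher and 10630 lower in place of 5642 and 6178.

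The organoids without iECs were compared with the organ, 3D-iHA against adult liver, which shares the 3D-iHA and adult libraries with comparisons above. Here 6 genes were higher in 3D-iHA and 2 lower, where 45.7% of all genes were called higher and 39.2% lower (medians 4.07 and 0.13). The count of higher members and their median include *Krt20*, which had no count in adult liver. It passed the filter through other conditions, so that its call is a description. The ductal keratins *Krt7* and *Krt19* were 67.1-fold and 60.7-fold higher (log2 6.07 ± 0.154 and 5.92 ± 0.0978), *Epcam* 21-fold higher (4.40 ± 0.112), *Krt23* 13.4-fold higher (3.75 ± 0.205) and *Krt20* at least 497-fold higher. *Krt8* was 1.39-fold higher (0.47 ± 0.0731). *Prom1* was 53.2-fold lower (-5.73 ± 0.167). On library totals these log2 fold changes were 7.50 for *Krt7*, 7.36 for *Krt19*, 5.83 for *Epcam*, 5.18 for *Krt23*, 1.91 for *Krt8* and -4.30 for *Prom1*. *Krt18* was 1.48-fold lower (-0.56 ± 0.0589), but 0.87 and higher on library totals, where the median of all genes stood at 1.56 and the calls were split into 10457 higher and 2588 lower in place of 6459 and 5534. Relative to that median *Krt18* was lower on both scales, which adds no evidence because the scaling shifts all genes about alike.

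Likeness of the 8 genes was described by Pearson's r of log2 CPM over libraries, which share depth and the 7 conditions, and the values are descriptions without a test. Over 14 libraries, *Krt8* and *Krt18* had an r of 0.997 and *Krt7* and *Krt19* of 0.992. Over the 8 culture libraries, *Krt8* and *Krt18* stayed at 0.987, whereas *Krt7* and *Krt19* had -0.372. *Krt23* went with *Krt8* (0.955) and *Krt18* (0.95) and opposite to *Epcam* (-0.98), and *Krt20* went with *Epcam* (0.943) and opposite to *Krt18* (-0.963). These culture values mostly restate the difference between 4 2D and 4 3D libraries.

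**Figure D4:**
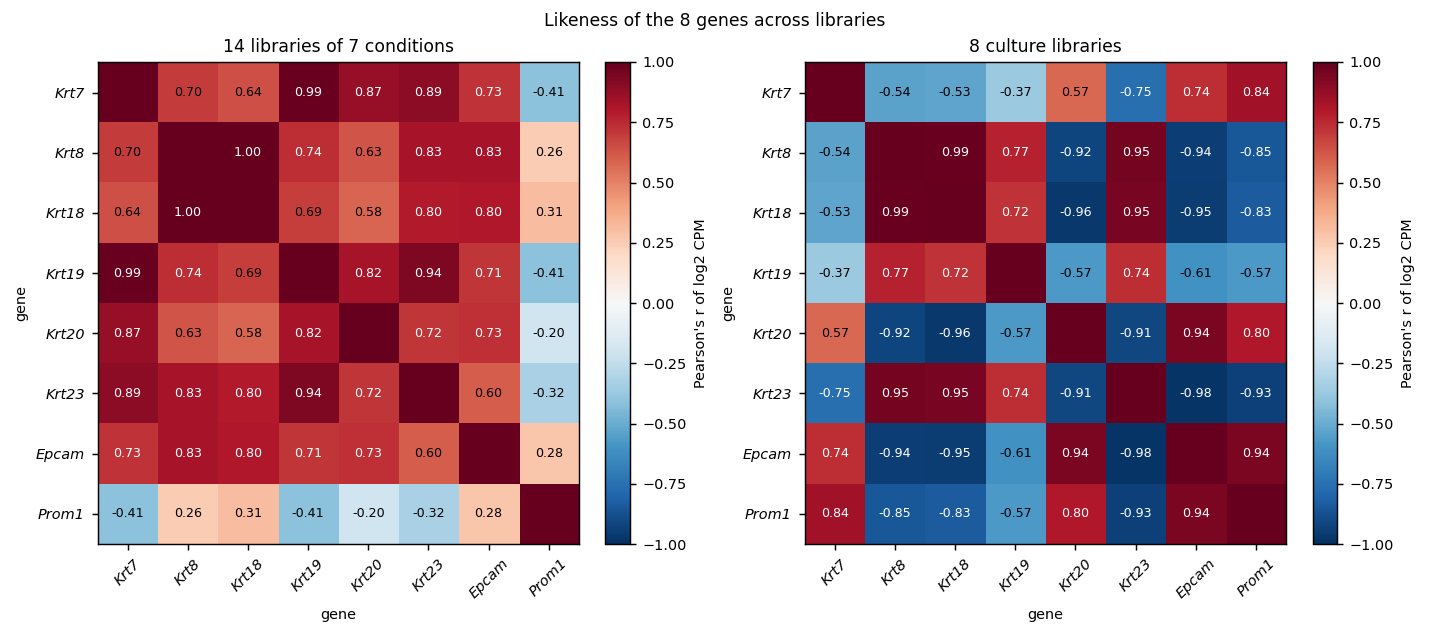
Pearson's r of log2 CPM between each pair of the 8 genes, over the 14 libraries (left) and over the 8 culture libraries (right), from -1 (blue) to 1 (red). *Krt8* and *Krt18* stay near 1 in both, while *Krt23* and *Epcam* go from 0.60 to -0.98.

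Of the 14120 other genes, those most alike over 14 libraries were searched for each member. *Krt18* was first for *Krt8*, ahead of *Raph1* (0.996) and *Lrrc8d* (0.995), and for *Krt18* came *Krt8*, *Raph1* (0.995) and *Tbc1d8* (0.995). *Krt7* was closest to *Trap1a*, *Myo7b* and *Gcnt3* (0.996 to 0.997), *Krt19* to *Pmaip1*, *Itgb6* and *Prr13* (0.994 to 0.996), and *Krt20* to *Isl1*, *Capn5* and *Lrrc8b* (0.992 to 0.995). *Krt23* was closest to *Vps37b*, *Selp* and *Akr1b8* (0.991 to 0.995). *Epcam* was closest to *Tmprss2*, a membrane serine protease of epithelia (0.998), then to *Ttc39a* and *Nipal3*. *Prom1* had the lowest top values, with *Galnt6*, *Mtfp1* and *Habp2* at 0.98 to 0.984.

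Related genes were counted in 3D against 2D by list, beside the 38.7% and 37.2% of all genes called. Listed genes with few counts in 2D or 3D, such as *Krt4*, *Krt5*, *Grhl2*, *Nes*, *Sctr* and *Pdgfrb*, passed the filter through the libraries where they are high, so that the counts are descriptions. Of 10 other keratins tested, 2 rose and 5 fell (median log2 -0.55). *Krt4*, a keratin of stratified mucosa, rose by 5.95 ± 0.243, with 2 to 10 counts a library in 2D and 287 to 478 in 3D. *Krt5*, a basal cell keratin, had a log2 fold change of -3.52 ± 0.42. Of 12 keratin anchors and linkers, 8 rose and 2 fell (median 0.25), led by the desmosomal plakophilin *Pkp3* (4.34 ± 0.36) and, downward, periplakin *Ppl* (-1.39 ± 0.0542). Of 12 partners, proteases and relatives of *Epcam*, 8 rose and 3 fell (median 0.67). In that list *Spint1*, an inhibitor of membrane serine proteases, rose by 4.10 ± 0.259 and *Fhl2* was at -1.07 ± 0.0471. Of 9 apical protrusion genes, 6 rose and 1 fell (median 2.38), with the mucin *Muc1* at 6.79 ± 0.367 and *Eps8* at -0.18 ± 0.0698. Of 9 epithelial transcription and splicing factors, 3 rose and 1 fell (median 0.06), with *Elf3* at 2.52 ± 0.1 and *Grhl2*, a factor known to act on *Epcam*, at -1.66 ± 0.365. *Grhl2* had only 10 to 29 counts a library in 2D and 4 to 8 in 3D, and its part in the level of *Epcam* was not tested. None of 6 intermediate filament genes of other cells rose and 5 fell (median -1.47), the neural progenitor filament *Nes* with a log2 fold change of -7.66.

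Markers of other cell types moved between the same libraries, and their part in the results above was not tested. Of 14 further cholangiocyte markers tested, 7 rose and 4 fell in 3D (median 0.51), with the secretin receptor *Sctr* at 6.26 ± 0.494 and *Pkhd1* at -2.38 ± 0.323. The summed level of the 16 listed was 1020 to 1160 CPM in 2D and 1160 to 1280 in 3D, and *Onecut1* had no count in any culture condition. That sum was 748 to 751 CPM in adult liver, 1560 to 1800 in fetal liver and 1290 to 1310 in Fib, so it did not follow the ductal keratins. Of 7 intestinal markers, 6 rose and none fell (median 1.11, *Vil1* 3.03 ± 0.117), and the sum of the 8 listed was 866 to 942 CPM in 2D-iHepSC, 512 to 552 in 2D-iHepSCiEC, 2260 to 2290 in 3D-iHA, 2360 to 2410 in 3D-iHEA, 29.8 to 32.2 in Fib, 161 to 163 in adult liver, where *Krt20* had no count, and 17.6 to 19.8 in fetal liver, where it had. With iECs in 2D, 4 of these 7 were lower and none higher (median -0.54, beside 3.92% of all genes lower), and in the interaction 4 were higher and none lower (median 0.62, beside 1.52% higher), the direction in which *Epcam*, *Krt19* and *Krt23* were called. Both mesothelial genes tested fell (*Upk1b* -3.04 ± 0.287), the sum of the 6 listed going from 1630 to 1900 CPM in 2D to 319 to 395 in 3D. Of 6 mouse endothelial markers, 5 rose and none fell in 3D (*Tek* 5.90 ± 0.231). In 3D-iHEA against 3D-iHA, 4 of these 6 were lower and none higher, beside 1.07% of all genes lower and 1.19% higher. The sum of the 8 endothelial markers listed was 421 to 501 CPM in 2D, 1250 to 1390 in 3D-iHA and 885 to 966 in 3D-iHEA, with *Kdr* and *Emcn* at 0 counts in 3D-iHEA. Of 4 hepatocyte markers tested, 1 rose (*Ttr* 5.37 ± 0.131) and 1 fell (*Fah* -0.83 ± 0.0642). Of 4 fibroblast markers, 2 rose (*Pdgfrb* 4.87 ± 0.485) and 1 fell (*Col1a1* -2.65 ± 0.571), at a sum of at most 12.6 CPM. The only erythroid marker tested, *Klf1*, rose by 1.41 ± 0.297, and the 8 listed summed to at most 1.19 CPM in a culture library against 34800 to 36500 in fetal liver.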

How the data were processed

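Gene-level read counts of 14 mouse RNA-seq libraries were analyzed, 2 for each of 7 conditions given by the labels. The deposited values are raw counts from HTSeq; according to the authors, 150 bp paired-end reads were trimmed with Trimmomatic 0.36, aligned with HISAT2 to GRCm38 and processed with Cufflinks. No normalization had been applied to them. Strand setting, treatment of reads that fit several genes and annotation release are not given in the sources used here. The column of the second 3D-iHEA library carries a number that also fits the first, so it was used by condition only.

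Differences were tested with edgeR 4.0.16 in R 4.3.3 (TMM, quasi-likelihood test, Benjamini-Hochberg, threshold 0.05) across all genes whose log2(count + 1), averaged over the fitted libraries, reached 3: 13409 genes over the 8 culture libraries for the culture comparisons, with 1 term per condition or, for 3D against 2D, 4 against 4 libraries, and 14121 genes over all 14 libraries for comparisons with fibroblasts or liver. The 8 genes passed the filter in both fits. The SE is the log2 fold change divided by the square root of F. A count of 0 allows up to 3 counts, and folds against a group with only 0 counts are lower bounds from that floor; intervals and floors cover counting error only. With 2 libraries per condition and totals from 20851489 to 35143325, the common coefficient of variation was 4.76% in the culture fit and 5.31% in the fit of 14 libraries.

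The members and lists were chosen with earlier results of these data known. All 8 genes are named, with the called gene of the largest rise and fall from each list in 3D against 2D and the 3 genes most alike to each member by Pearson's r of log2 CPM (prior count 2). Lengths and positions are from GENCODE M21 and promoters from RefSeq (GRCm38.p6). Scripts were tested on simulated counts. Alternatives were no filter, a filter of 5, listed genes added to the filter, DESeq2 size factors, the Wald test of DESeq2 1.42.0, other libraries in the fit, each library left out and library numbers as a block. Library totals without scaling factors, the block libraries without the block, only the libraries of the comparison for cultures and the principal transcript as length were added after seeing the data. Among the 6 conditions other than 3D-iHEA, equally numbered libraries did not deviate together (r from -0.0703 to 0.0476), so numbers do not pair them; 3D-iHEA was not checked.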

Additional observations from a re-analysis of the deposited data

Results flagged for a closer look

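The difference that went with iECs was called unlike in 3D and 2D for 3 genes, by the interaction test of edgeR, and the call held in every alternative for *Epcam* only. It was 0.53 on the log2 scale for *Krt19*, with -0.31 in 2D and 0.22 in 3D. It was 0.54 for *Krt23*, with -0.68 in 2D and -0.14 in 3D, and 0.82 for *Epcam*, with -0.24 in 2D and 0.58 in 3D. The libraries of 3D-iHEA differed from each other more than those of the other cultures (chi-square per gene 10.9 against 3.3 to 3.49), and the part of this in the interactions was not tested. For *Epcam* the interaction ranged from 0.70 to 0.94 when each library was left out. For *Krt19* it ranged from 0.45 to 0.63, with the call lost without the second 3D-iHA library. For *Krt23* it ranged from 0.30 to 0.74, with the call lost in the DESeq2 Wald test, with 14 libraries and without any single library of 2D-iHepSC, 2D-iHepSCiEC or 3D-iHA.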

How the results depend on the processing

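Of the values of single genes, 911 kept their direction and their side of the threshold, 31 lost the call, 8 gained it and 15 turned direction. Among counts of members, 232 stayed within 1.5 times and 14 moved further. In 3D against 2D, 2 members were called higher in place of 4 (*Prom1* included) with library numbers as a replicate block without the 3D-iHEA libraries, and also 2 in the same libraries without the block, with *Krt7* not called (edgeR adjusted p = 0.169 and 0.123) and *Prom1* under the filter in both. The block moved no other count of members by over 1.5 times. No paired analysis was possible for comparisons with 3D-iHEA because the column name of its second library also holds the number of the first. In 3D-iHEA against 3D-iHA, 5 members were called higher without a filter, and 1 with only the libraries of the comparison. Leaving out each library gave 1 to 4 higher and 0 to 1 lower, and 1 to 2 lower in 2D-iHepSCiEC against 2D-iHepSC and 1 to 3 higher in the interaction. In 3D-iHA against adult liver, 1 member was lower with the filter of 5, which left *Prom1* untested, and 1 on library totals, where *Krt18* turned to 0.87. In adult against fetal liver, library totals gave 2 higher and 5 lower, and *Prom1* turned to -0.94.

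The other turns were in differences that were not called. *Krt19* in 3D-iHEA against 2D-iHepSCiEC was -0.0178 with all 14 libraries and -0.0739 to 0.1025 when each was left out. *Krt23* in 3D-iHEA against 3D-iHA ranged from -0.3805 to 0.0584 and *Krt8* in 2D-iHepSCiEC against 2D-iHepSC from -0.0357 to 0.0911. The interaction of *Krt20* was 6e-04 with DESeq2 size factors, 0 in its Wald test, 0.0064 with 14 libraries and -0.1017 to 0.1044 when each was left out. The causes were not tested.

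Counts over all genes moved by more than 1.5 times in 3 comparisons and on library totals. In 3D-iHEA against 3D-iHA, 160 higher and 143 lower became 429 and 452 without a filter, 45 and 45 with only its libraries, and 36 to 381 and 44 to 342 when each library was left out. In 2D-iHepSCiEC against 2D-iHepSC, 571 and 525 became 1068 and 978 with only its libraries, 1047 and 905 with the block, 1044 and 985 in the same libraries without it, and 110 to 222 and 140 to 215 when each was left out. There 361 were higher with 14 libraries, and library totals split the calls into 751 and 411. For the interaction, 204 and 217 became 389 and 512 without a filter and 64 to 428 and 56 to 531 when each was left out, and 134 were lower with 14 libraries. With 2 libraries per condition, differences of a log2 size near 0.2 in culture were not held apart from the spread in every setting.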
